A study of Danio rerio with 15 samples.

Results

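Transcript levels of coro1a, ptprc and arpc1b, 3 genes that are used as markers of leukocytes, were followed in the brains of single adult zebrafish. The genes were taken by the gene symbol that the array's annotation pairs with each probe set, and all their probe sets were kept: 4 of 15502 tested, for 3 of 8793 named genes. Coro1a has 2 of these probe sets, and ptprc and arpc1b have 1 each. The genes had been selected on levels measured on these same arrays, so their differences between groups are given below as descriptions, with no test.

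Whole-brain RNA of 15 fish was hybridised to Affymetrix 3' expression arrays, with 1 fish per array. All fish were 1 year old, sexually mature, and of a strain labelled Transgenic Mosaic 1, whose transgene the labels do not describe. The control diet held 1.4 ppm selenium and the supplemented diet, made with sodium selenite, held 5.6 ppm. Both diets were fed for 14 days. The control diet was eaten by 3 of the females and 4 of the males, and the selenium diet by the other 4 females and 4 males. The stated design has equal numbers of both sexes on each diet, but only 3 control females are among the samples used here.

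From work in mammals, coronin-1A, encoded by coro1a, binds actin filaments in blood-derived cells and is needed for their migration and survival. Ptprc, or CD45, is a receptor tyrosine phosphatase carried on the surface of nucleated blood cells, where it sets the activity of Src-family kinases. Arpc1b is the subunit of the actin-branching Arp2/3 complex that prevails in blood cells, while its paralog Arpc1a prevails in most other cells. In the brain, resident microglia express all of these genes, and so do macrophages, neutrophils and lymphocytes of the vessels and meninges. In whole-brain RNA a smaller number of such cells and less of a transcript per cell cannot be told apart.

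All values below are log2 expression values as deposited, where a difference of 1 is a doubling. A level compared between different genes depends on their probes, so levels are compared only within a gene. The brighter coro1a probe set, which lay between the 72.4th and 91.1st percentile of its array, read 10.35, 9.47 and 10.01 in the 3 control females. It read 9.80, 10.94, 9.75 and 9.66 in the 4 females on selenium. It read 9.48, 9.20, 9.46 and 10.15 in the 4 control males, and 9.41, 9.22, 9.12 and 9.12 in the 4 males on selenium. A single fish stood far above the others in 2 groups, females on selenium and control males, while the males on selenium were close together. Of the 8 males, 6 lay below the lowest female, and 2 of the 7 females lay above the highest male. How many of all probe sets part the sexes as far was not counted, here or for arpc1b below.

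The arpc1b probe set lay between the 69.8th and 88.5th percentile of its array. It read 10.53, 9.47 and 9.69 in the control females, and 9.52, 10.63, 9.95 and 9.41 in the females on selenium. It read 9.28, 8.91, 8.92 and 10.11 in the control males, and 9.27, 8.94, 9.0 and 8.95 in the males on selenium. The fish with the highest level was the same as for coro1a, female selenium replicate 2, followed by female control replicate 1 and male control replicate 4. Here 7 of the 8 males lay below the lowest female, and the remaining male was male control replicate 4.

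The ptprc probe set was dimmer, between the 29.3rd and 57.0th percentile. It read 7.42, 6.45 and 6.78 in the control females, and 6.60, 7.85, 6.73 and 6.99 in the females on selenium. It read 6.22, 5.95, 6.32 and 7.43 in the control males, and 6.52, 5.55, 6.15 and 5.83 in the males on selenium. The same 3 fish were highest again, female selenium replicate 2, male control replicate 4 and female control replicate 1. Male selenium replicate 1 was the highest of its group for all 3 genes.

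**Figure D1:**
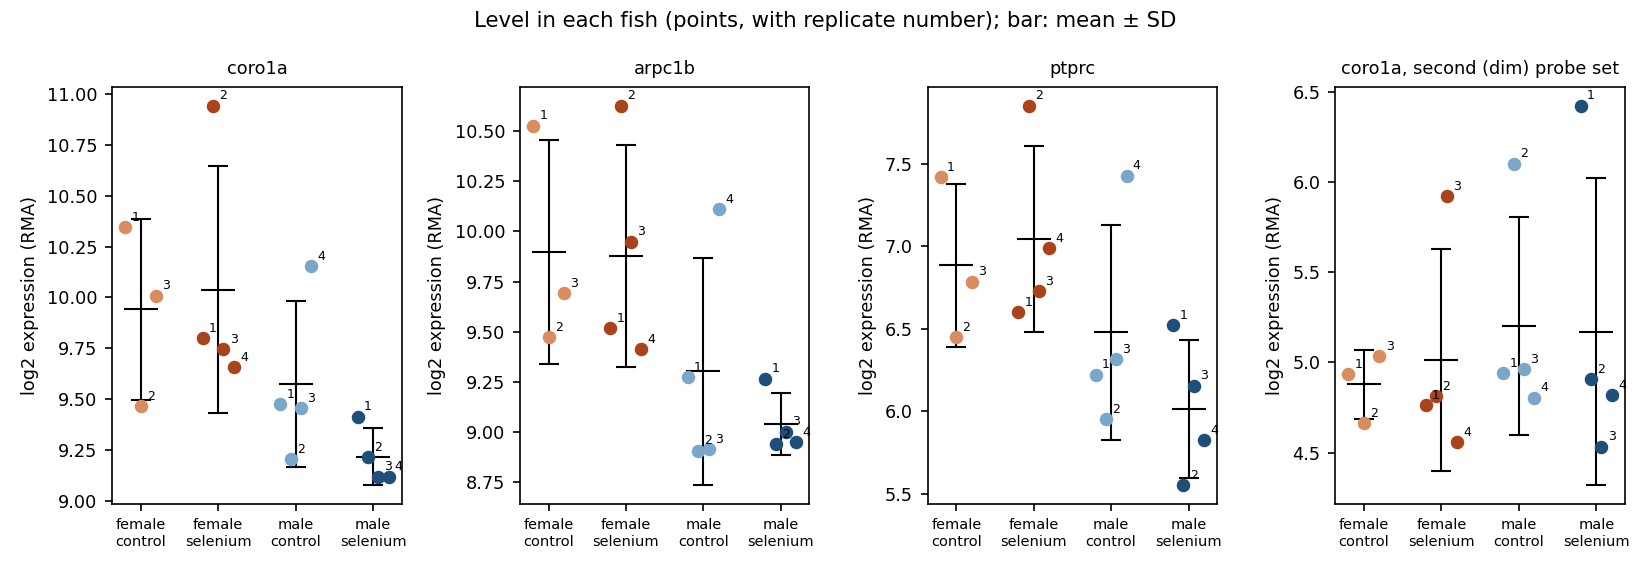
Level of each probe set in each of the 15 fish (log2 expression, points numbered by replicate) by sex and diet, with the group mean ± SD as a bar. Female selenium replicate 2, female control replicate 1 and male control replicate 4 are the 3 highest fish for coro1a, arpc1b and ptprc, and other fish are high in the second, dim probe set of coro1a.

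The second coro1a probe set did not follow the first. It lay between the 16.9th and 40.2nd percentile of its array, and 12 of its 15 values fell between 4.53 and 5.03. The other 3 were male selenium replicate 1 at 6.42, male control replicate 2 at 6.10 and female selenium replicate 3 at 5.92. None of these is 1 of the 3 fish that were high for the bright probe set. After the group means were removed, the correlation between the coro1a probe sets was r = -0.08 over the 15 fish. The dim probe set stood closer to the mean of a list of 24 skeletal muscle genes, at r = 0.72. Male selenium replicate 1 was the highest fish in both, at 6.42 and at a muscle mean of 8.83. This r can rest largely on that fish, and r without it was not computed. The group means of the dim probe set were between 4.88 and 5.20, with SDs up to 0.85. The statements on coro1a below rest on the bright probe set.

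For the bright probe sets the order of the groups was nearly the same in the 3 genes. Mean coro1a was 10.04 ± 0.61 (SD, n = 4) in females on selenium, 9.94 ± 0.44 (n = 3) in control females, 9.57 ± 0.41 (n = 4) in control males and 9.22 ± 0.14 (n = 4) in males on selenium. Mean ptprc followed the same order, with 7.04 ± 0.56, 6.88 ± 0.49, 6.48 ± 0.65 and 6.01 ± 0.42. For arpc1b the females changed places, at 9.90 ± 0.56 on the control diet and 9.88 ± 0.55 on selenium, above control males at 9.30 ± 0.57 and males on selenium at 9.04 ± 0.15. Neighbouring groups in this order differed by less than the larger of their 2 SDs, except that the step of arpc1b from females on selenium to control males, 0.57, was about as large as either SD.

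Averaged over the diets, females stood above males by 0.59 ± 0.20 (SE of the limma fit over the 15 fish) for coro1a, 0.72 ± 0.25 for ptprc and 0.72 ± 0.23 for arpc1b. On selenium alone the female minus male differences were 0.82 ± 0.28, 1.03 ± 0.35 and 0.84 ± 0.31. On the control diet they were 0.37 ± 0.30, 0.40 ± 0.37 and 0.59 ± 0.33. The averaged differences stayed positive whichever fish was left out, between 0.44 and 0.71 for coro1a, 0.58 and 0.87 for ptprc, and 0.56 and 0.85 for arpc1b. The genes were selected on levels from these same arrays, so the stable sign adds no support for a sex difference. For the dim coro1a probe set females stood below males, by -0.24 ± 0.30, and with both coro1a probe sets averaged the difference of coro1a was 0.18 ± 0.18.

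The diet differences were small beside the spread. In females, selenium minus control was 0.10 ± 0.30 for coro1a, 0.16 ± 0.37 for ptprc and -0.02 ± 0.33 for arpc1b. Without female selenium replicate 2 the signs of coro1a and ptprc turned, to -0.21 and -0.11, and arpc1b stood at -0.27. With single fish left out, arpc1b ran from -0.27 to 0.30, so its sign turned as well. In males the differences were -0.36 ± 0.28, -0.46 ± 0.35 and -0.26 ± 0.31, and without male control replicate 4 they shrank to -0.16, -0.15 and 0.01.

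These sizes have to be read beside other measures that moved with the groups. The gapdh control probe sets of the 3' and the 5' end of the transcript, whose gap widens as RNA is shortened, differed by 1.33 to 1.84 in females on selenium, 0.97 to 1.61 in control females, 0.89 to 1.26 in control males and 0.66 to 1.17 in males on selenium. With this gap in the model the averaged sex differences were 0.51 for coro1a, 0.70 for ptprc and 0.83 for arpc1b. The mean of the 24 muscle genes ran from 6.06 to 8.83 in males on selenium and from 5.60 to 6.37 in the other fish, and that of 29 retina genes from 4.85 to 7.86 against 4.68 to 6.37. With both lists in the model the sex differences were 0.68, 0.77 and 0.78. Since the gap and the lists moved with the groups, these models separate them from sex only in part. The share of the gap and the lists in the differences was not tested. The differences from these models are given without an SE, so they are not shown to be as precise as those above.

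Fish of the same group differed more in these genes than in most others. The SD between fish within groups was 0.43 for coro1a, 0.48 for arpc1b and 0.54 for ptprc, against a median of 0.17 over all probe sets. Those values exceeded 94.4%, 95.6% and 96.6% of the 15502 probe sets. From the lowest to the highest fish the level spanned 3.54-fold for coro1a, 3.29-fold for arpc1b and 4.91-fold for ptprc. The SDs are given with no test, since the spread was among the values known when the genes were picked.

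The 3 genes rose and fell together from fish to fish. With group means removed, coro1a and arpc1b correlated at r = 0.91 (Spearman's rho 0.83), coro1a and ptprc at 0.88 (0.69), and ptprc and arpc1b at 0.88 (0.64), over 15 fish. Without the 2 fish farthest from the median, female selenium replicate 2 and male control replicate 4, r was 0.82, 0.76 and 0.73. Without female control replicate 1 as well, r over the remaining 12 fish was 0.68, 0.62 and 0.55. In both cases the deviations were still taken from the group means of all 15 fish, which include the removed fish. In the groups that lost a high fish, the others therefore lie mostly below these means in all 3 genes. Such a shared offset can raise r. These lower values therefore do not show whether the relation was present in fish that did not stand out. No p is given for these 3 pairs, for the reason named for the SDs.

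**Figure D2:**
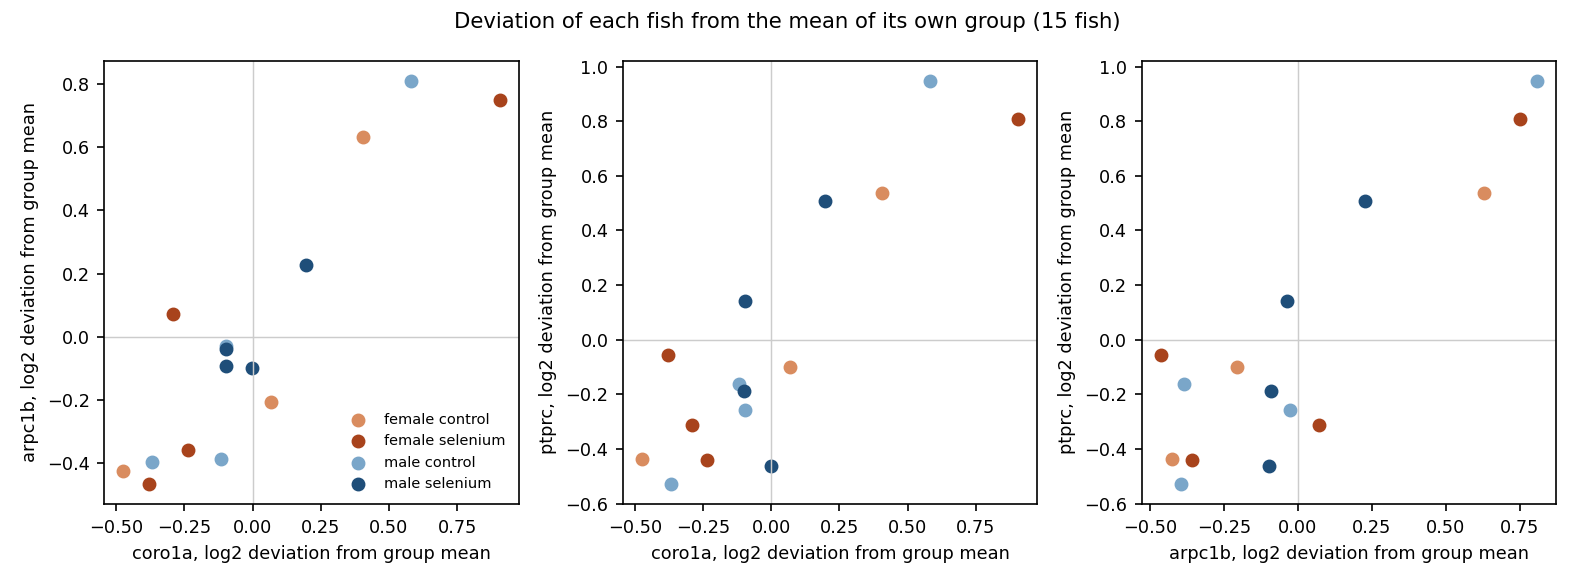
Deviation of each fish from the mean of its own group (log2) for each pair of genes, coloured by sex and diet. The 3 fish in the upper right corner are female selenium replicate 2, male control replicate 4 and female control replicate 1, and r over all 15 fish is 0.91, 0.88 and 0.88.

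To see which other genes followed, each gene was set against the means of 16 gene lists and 2 measures of the array, which makes 54 relations, adjusted together with the 3 pairs. Of these, 12 were positive by Pearson's r at an adjusted permutation p under 0.05 and none was negative. The lists, like the 3 genes, were chosen with earlier results of these data known, so these p-values are descriptions. Keeping the 3 pairs in the adjustment can also lower the other adjusted p-values. The list of inflammation and interferon genes stood highest, with r = 0.93 to coro1a (adjusted permutation p = 0.0159), 0.92 to ptprc (0.0101) and 0.88 to arpc1b (0.015). Leukocyte regulators of actin and of the GTPase Rac also passed with all 3 genes, at 0.74, 0.80 and 0.86, with adjusted permutation p = 0.0263, 0.0213 and 0.0159. The microglia and macrophage list reached 0.84 with coro1a (adjusted permutation p = 0.0367) and 0.73 with ptprc (0.0263), and 0.66 with arpc1b, which missed the threshold (0.0861). Antigen presentation genes passed with coro1a at 0.78 and ptprc at 0.77, and the other coronins with coro1a at 0.79 and arpc1b at 0.77. The Arp2/3 list had r = 0.82 with coro1a but missed the threshold (adjusted permutation p = 0.0689), and it had 0.54 with ptprc and 0.61 with arpc1b. By Spearman's rho the actin and Rac list passed with none of the 3 genes (adjusted permutation p = 0.147, 0.175 and 0.0897). The inflammation list passed by rho with ptprc (0.0493) but not with coro1a (0.0565) or arpc1b (0.0897). Otherwise only coronins with coro1a and arpc1b, microglia with coro1a, and antigen presentation with ptprc passed by rho. The Pearson calls lean on a few fish. Without female selenium replicate 2 none of the 57 relations passed, without male control replicate 4 there were 3, and without male selenium replicate 1 there were 7.

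Lymphocyte genes gave r = 0.56, 0.64 and 0.80 with coro1a, ptprc and arpc1b, and neutrophil genes 0.31, 0.17 and 0.14. None of these 6 passed, and the lymphocyte list came nearest, with arpc1b (adjusted permutation p = 0.0533). The 11 measured lymphocyte genes had mean levels from 4.29 for rag2 to 10.01 for gata3. Which cells of the brain gave these transcripts was not tested. Erythrocyte and residual blood genes gave 0.48, 0.57 and 0.63, with adjusted permutation p = 0.229, 0.0989 and 0.0861. Without female selenium replicate 2 and male control replicate 4 the erythrocyte list had r = 0.56, 0.64 and 0.73. The microglia and macrophage list then had 0.71, 0.63 and 0.47, and the inflammation list 0.82, 0.83 and 0.72. These deviations too were from the means of all 15 fish, so a shared offset can raise r. Endothelial genes gave 0.61, 0.60 and 0.52 over all fish. Of the main adult globin genes, hbaa1 had r = 0.46, 0.56 and 0.53 and hbba2 0.48, 0.56 and 0.46. The mean of the 19 erythrocyte genes ran from 7.10 to 7.66 in control females, 6.99 to 7.32 in females on selenium, 7.11 to 7.35 in control males and 7.15 to 7.45 in males on selenium, and the part of residual blood in the spread of the 3 genes was not tested. The means of skeletal muscle, retina, neuron, myelin and radial glia lists lay between r = -0.47 and 0.43. Without female selenium replicate 2 and male control replicate 4 these lists ran more widely. They then lay between r = -0.69, for arpc1b with radial glia, and 0.57, for ptprc with myelin. The gapdh gap correlated with the 3 genes at r between -0.14 and 0.12 and the array median at -0.07 to 0.01.

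**Figure D3:**
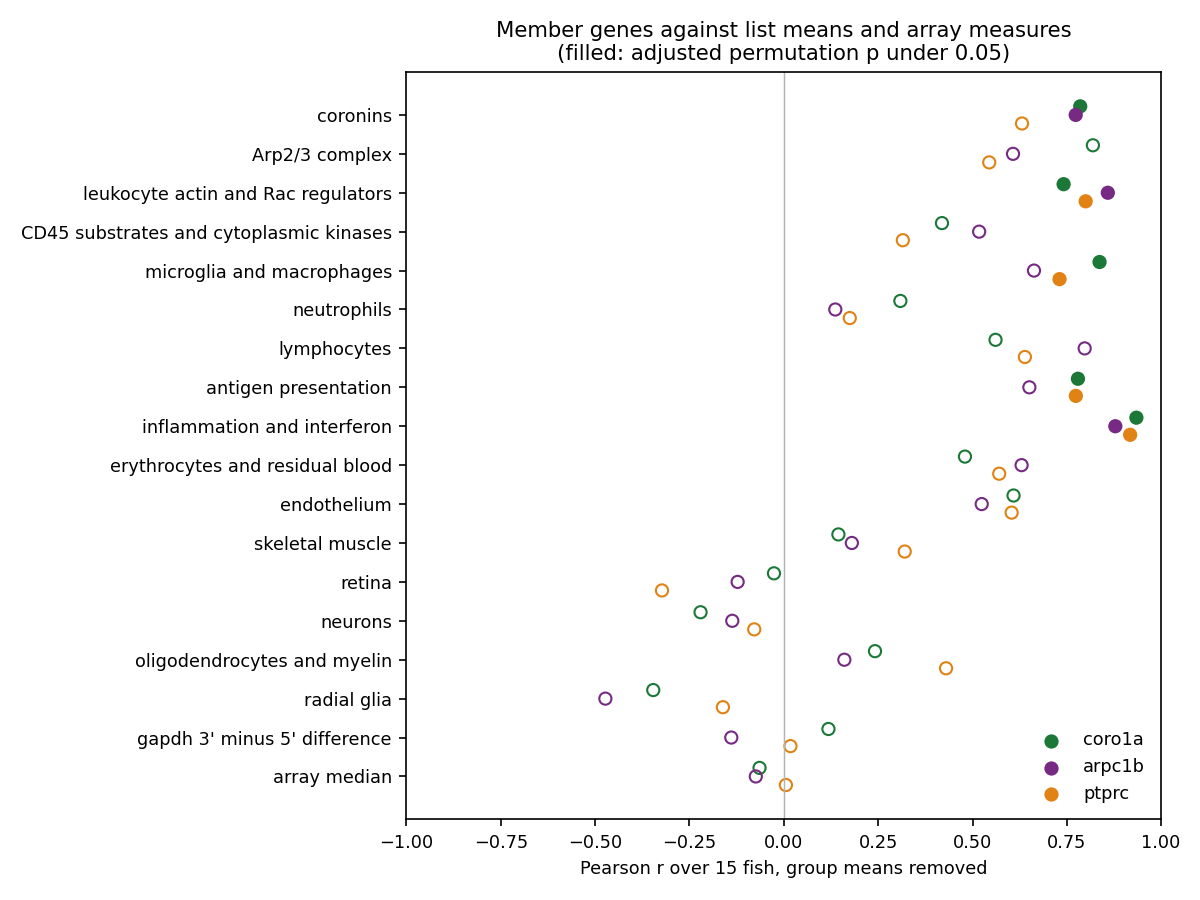
Pearson r over 15 fish, with group means removed, of coro1a, arpc1b and ptprc with the mean of each gene list and with 2 measures of the array. Filled points have an adjusted permutation p under 0.05, and they lie in the lists of inflammation, leukocyte actin, microglia, antigen presentation and coronins.

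The 12 named genes whose deviations followed the 3 genes most closely, by the mean of their 3 Pearson correlations over the 15 fish, were mhc1zba, lcp1, b2m, zgc:174863, psme1, fgl2a, anxa3b, ifi44d, cd74a, pfn1, lgals9l1 and cd74b. Their mean r ran from 0.95 for mhc1zba, a class I histocompatibility gene, to 0.88 for cd74b, and 5 probe sets with no gene name stood among them. Lcp1 is L-plastin, an actin-bundling protein of leukocytes, and b2m encodes beta-2-microglobulin, the light chain of class I molecules. Cd74a and cd74b encode invariant chains of class II molecules, psme1 a subunit of the proteasome activator, and pfn1 a profilin that supplies actin monomers. Of the 15498 other probe sets, 72 had a mean r of 0.8 or more and 12 had one of -0.8 or less.

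Of the 12, lcp1 was the closest to arpc1b. It read 8.47, 6.78 and 7.04 in the control females, and 6.87, 8.68, 6.97 and 6.24 in the females on selenium. It read 6.26, 6.17, 6.33 and 7.90 in the control males, and 6.93, 6.70, 6.75 and 6.58 in the males on selenium. The 3 highest fish are those that were highest for coro1a. Its correlation was r = 0.94 with coro1a and 0.96 with arpc1b. B2m was closest to ptprc, at r = 0.98, with 12.26 in female selenium replicate 2, 12.01 in male control replicate 4, nearly as much in female control replicate 1, and at most 11.54 in the other fish. The 12 genes were picked by r over these same fish. That lcp1 and b2m were high in the same 3 fish therefore follows from the choice and adds no support. The averaged sex differences of the 12 genes were all positive, from 0.15 ± 0.17 for mhc1zba to 0.81 ± 0.25 for pfn1, and none was called (limma, smallest adjusted p = 0.163, pfn1).

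**Figure D4:**
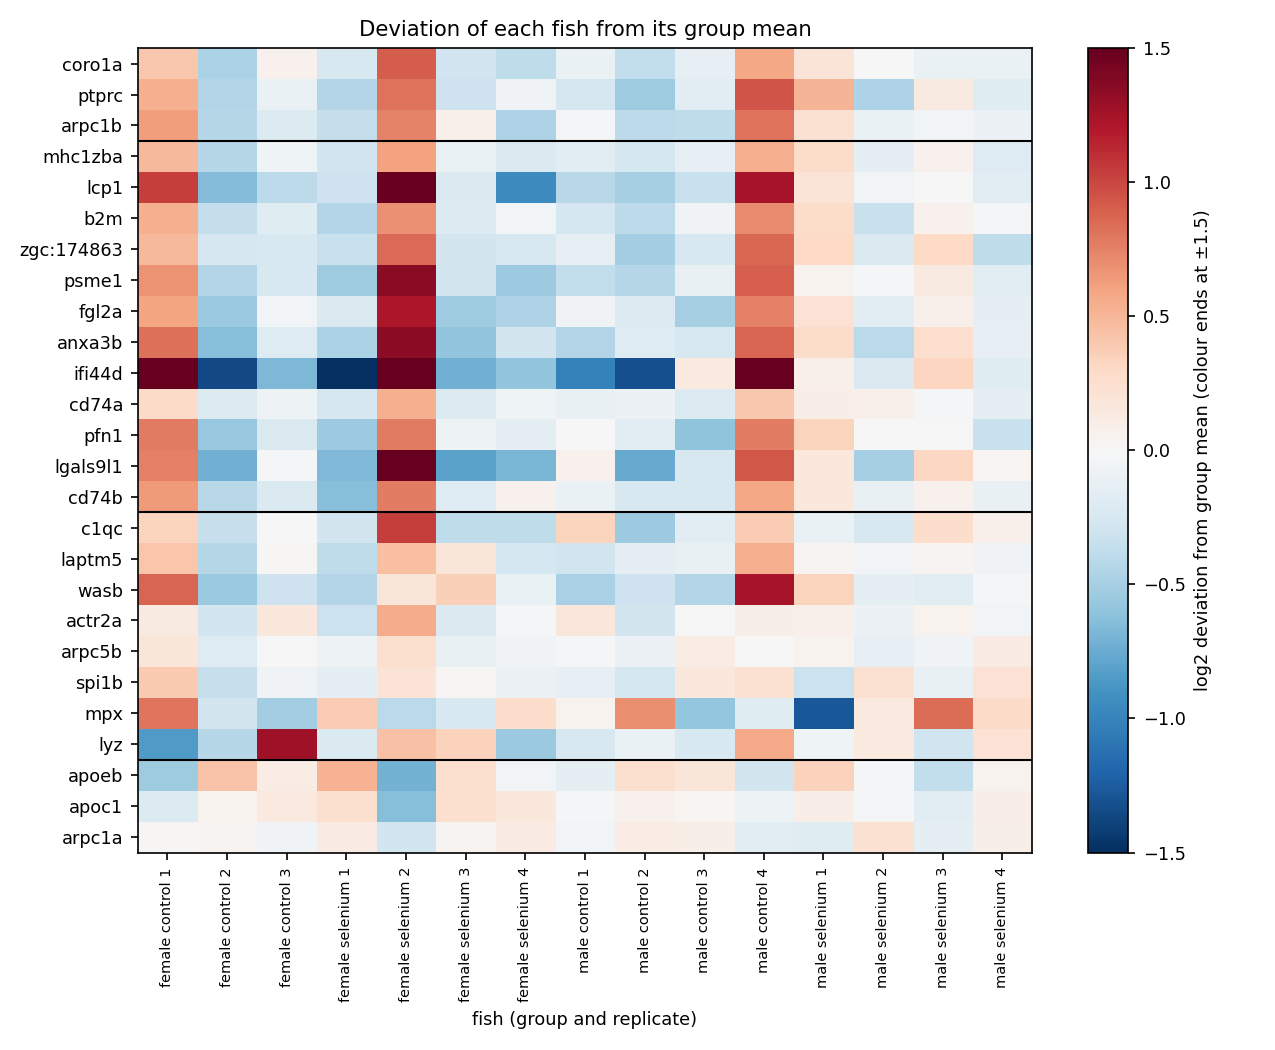
Deviation of each fish from its group mean (log2, colour) for the 3 genes, the 12 nearest named genes, 8 genes of the leukocyte and Arp2/3 lists, and the 3 genes apoeb, apoc1 and arpc1a, separated by black lines. The columns of female control 1, female selenium 2 and male control 4 are red down the first 15 rows, and apoeb is blue in these columns. The 12 nearest genes were picked by r over these same fish, so their red columns follow from that choice.

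A slope on the level of each of the 3 genes, with the group means in the model, was then fitted for every other probe set. On coro1a, 65 probe sets had a positive slope at adjusted p under 0.05, 0.419% of 15501, and 6 had a negative one, 0.0387%. On ptprc there were 56 positive slopes, 0.361%, and 0 negative ones, 0%. On arpc1b there were 65, 0.419%, and 1, 0.00645%. Among 61 measured genes of 5 leukocyte lists (actin and Rac regulators, CD45 substrates and kinases, microglia and macrophages, neutrophils, lymphocytes), 5 had a called positive slope on coro1a, 4 on ptprc and 6 on arpc1b, and none had a called negative slope. The median r of the 61 genes was 0.28, 0.28 and 0.22, against -0.07, -0.07 and -0.06 over all probe sets. Without female selenium replicate 2 the leukocyte counts were 0, 0 and 2. Without female control replicate 1 they were 3, 0 and 1, and without male control replicate 4 they were 5, 0 and 2. Over all probe sets the called slopes of either sign, 71, 56 and 66 with all fish, also fell. They were 0, 6 and 18 without female selenium replicate 2, so that no slope on coro1a was called. Without female control replicate 1 they were 39, 17 and 13, and without male control replicate 4 they were 45, 9 and 17.

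Among the partners in actin regulation, lcp1 was called on all 3 genes (limma, adjusted p = 0.00113 on coro1a, 0.0274 on ptprc, 0.00044 on arpc1b). Capgb, a protein that caps actin filaments, was called on ptprc and arpc1b at r = 0.85 and 0.86. Wasb, a zebrafish counterpart of the Wiskott-Aldrich protein that activates the Arp2/3 complex in blood cells, was called on arpc1b at r = 0.85. The other 5 of the 8 measured regulators were not called on any of the 3, among them cotl1, a coactosin, at r = 0.84 with coro1a, and cfl1l, a cofilin-like gene, at r = -0.12.

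None of the 7 measured partners of arpc1b in the Arp2/3 complex was called on any of the 3 genes. Actr2a, an actin-related core subunit, had r = 0.82, 0.73 and 0.66 with coro1a, ptprc and arpc1b. A second actr2a probe set, at a mean of 6.09 against 6.44, had r = 0.36 with coro1a. The small subunits arpc4 and arpc5b had r = 0.75 and 0.75 with coro1a, and arpc3 had 0.60. Arpc5a had r = 0.40, 0.05 and 0.34. The other 2 of the 7 were negative with all 3 genes: the paralog arpc1a, with r = -0.71, -0.80 and -0.69, which read between 11.23 and 11.67 in the 15 fish, and the core subunit actr3, with -0.46, -0.49 and -0.23. The 4 other coronins measured, coro1b, coro1ca, coro2aa and coro6, had r between 0.26 and 0.79 with the 3 genes, and none was called.

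Of 24 measured microglia and macrophage genes, 4 were called on coro1a, namely c1qc, cd68, laptm5 and lgals9l1, with 1 on ptprc and 3 on arpc1b. C1qc, a chain of the complement protein C1q, had r = 0.86 with coro1a, and cd68, a lysosomal glycoprotein of phagocytes, had 0.87. Laptm5, a lysosomal membrane protein of blood cells, had r = 0.91 with arpc1b, and cyba, a subunit of the phagocyte oxidase, had 0.86 with arpc1b. Spi1b, the transcription factor Pu.1 of myeloid cells, had r = 0.59, 0.41 and 0.57 and was not called. Csf1ra, a receptor that microglia need, read at 3.94 to 4.08 in the group means and had r = 0.30 with coro1a. Of the 24 genes, 5 had a negative r with all 3 genes, and 3 of these were ctsl.1, a cathepsin, at -0.56, -0.55 and -0.39, the chemokine ccl34b.1 at -0.22, -0.43 and -0.38, and slc3a2a, part of an amino acid transporter, at -0.26, -0.32 and -0.47. Second, dimmer probe sets of ctsl.1 and cyba had r = 0.35 and 0.15 with coro1a, against -0.56 and 0.81 for those used. For 30 of the 54 listed microglia and macrophage genes no probe set carries the name.

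Apoeb and apoc1, lipid carriers that zebrafish microglia express strongly and that other brain cells express as well, were the remaining 2 with a negative r. Apoeb had r = -0.73, -0.68 and -0.71 with coro1a, ptprc and arpc1b, and apoc1 had -0.76, -0.63 and -0.66. Apoeb was lowest in female selenium replicate 2, at 10.42, and female control replicate 1, at 10.48. It lay between 11.09 and 11.91 in the other fish. Neither slope was called on coro1a (limma, adjusted p = 0.21 for apoeb and 0.181 for apoc1), so an inverse relation was not shown.

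Of the 8 measured substrates and kinases linked to CD45, none was called. Btk and ptpn6, both at work in blood cells, had r = 0.72 and 0.72 with ptprc, and plcg2 and syk had 0.36 and 0.40. The probe sets of btk and syk were dim, at means of 4.14 and 3.62. Of the widely expressed kinases, src, fyna and csk had r of -0.53, -0.29 and -0.40 with ptprc and yes1 had 0.11. Of 11 lymphocyte genes, trac, the constant region of the T-cell receptor alpha chain, was the only one called, on ptprc at r = 0.85 (limma, adjusted p = 0.0281). With coro1a this trac probe set, at a mean of 5.02, had r = 0.74. Other trac probe sets, at means of 4.91 and 4.13, had -0.23 and -0.04 with coro1a. Of 11 neutrophil genes none was called: lyz, a lysozyme of neutrophils and macrophages, had r = 0.33, 0.14 and 0.20, and srgn, a proteoglycan of granules, had 0.76, 0.71 and 0.56.

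Antigen presentation gave 4, 4 and 5 called positive slopes among 12 genes, which were b2m, cd74a, cd74b and mhc1zba on all 3 genes and tapbp.1, which loads class I molecules, on arpc1b. Another 5 of the 12 had a negative r with all 3 genes, with no slope called. They were mhc1uka, with r between -0.21 and -0.17, and the proteasome subunit genes psmb13a (-0.66, -0.74 and -0.82), psmb12 (-0.59, -0.54 and -0.76), psmb8a (-0.46, -0.46 and -0.69) and psmb9a (-0.30, -0.43 and -0.50). The probe sets of these psmb genes were dim, at means from 4.31 to 5.32. Psmb10, a proteasome subunit gene of the same list at a mean of 9.58, went the other way, with r = 0.72 with coro1a, and was not called. The list of inflammation and interferon genes also holds b2m, and it gave 3, 3 and 2 among 17. Irf9, which carries the interferon signal into the nucleus, was called on coro1a and ptprc at r = 0.91 and 0.86. Socs1a, an inhibitor of cytokine signals, was called on coro1a at r = 0.89, irf1b on ptprc at 0.86 and the chemokine ccl19a.1 on arpc1b at 0.84. Irf7, isg15 and mxa, further interferon-response genes, were not called, with r between 0.12 and 0.50. Irf1a, ptgs2a, saa and stat3 had a negative r with all 3 genes, and irf1a stood lowest at -0.83, -0.83 and -0.71, with no slope called. The irf1a probe set was dim and read only between 3.76 and 4.23.

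The contrasts of sex and diet were tested in the leukocyte lists, with the 3 genes left out. The lists were drawn up with earlier results of these data known. Over all 15502 probe sets, 22 were called in the sex difference averaged over the diets, 0.142%, and 162 on selenium alone, 1.05%. In the sex difference on the control diet and in the diet effect in females, in males, as the mean of both sexes and as their difference, 0 were called, 0% (limma). In that order, the unadjusted p was under 0.05 for 890, 1282, 811, 805 and 1298 probe sets. The 61 leukocyte genes include widely expressed kinases such as yes1, and apoeb and apoc1, which other brain cells express as well. Counts among these genes therefore do not measure leukocytes alone. Of the 61, 0 were called in each of the 7 contrasts (limma). An unadjusted p under 0.05 was found for 12 of them in the averaged sex difference, where 2296 of all probe sets had one, for 5 in the sex difference on selenium, where 2877 of all had one, for 7 in that on the control diet, and for at most 1 in each diet contrast. In the averaged sex difference 38 of the 61 were higher in females and 23 lower, with a median of 0.06, against 0.00 over all probe sets. In the diet effect 27 were higher and 34 lower on selenium in females, with a median of -0.03, and 30 higher and 31 lower in males, with a median of -0.02.

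**Figure D5:**
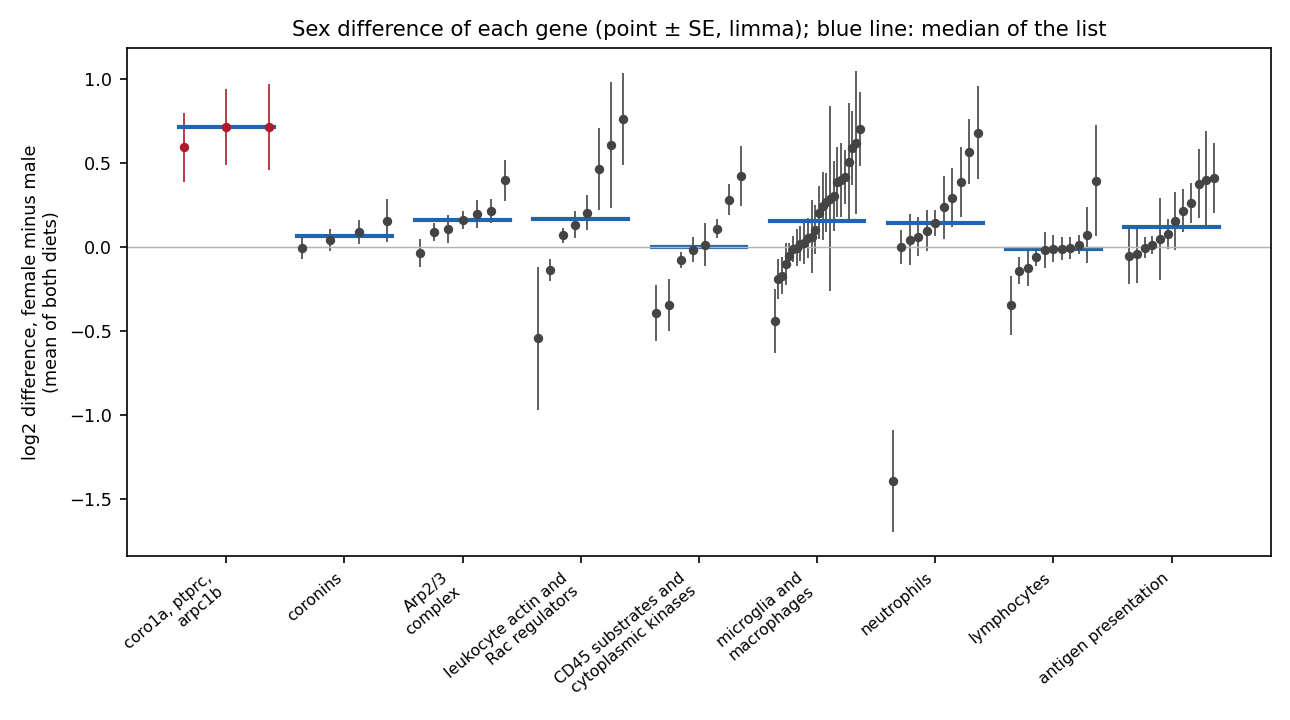
Female minus male difference averaged over the diets (log2, point ± SE of the limma fit) for coro1a, ptprc and arpc1b in red and for each gene of 8 lists in grey, with the median of each list as a blue line. The 3 red points lie at 0.59 to 0.72, the list medians lie between -0.01 and 0.17, and the low neutrophil gene at -1.39 is mpx.

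Within the lists the sex differences went both ways. Of 24 microglia and macrophage genes 17 were higher in females, among them acp5a by 0.70 ± 0.22 and c1qc by 0.59 ± 0.22, while apoeb was at -0.44 ± 0.19. Of the 7 Arp2/3 genes 6 were higher, actr2a by 0.40 ± 0.12 and arpc5b by 0.21 ± 0.07. None of these passed (limma, adjusted p = 0.163 for acp5a, 0.164 for actr2a and 0.192 for arpc5b). On the control diet all 7 Arp2/3 genes were higher in females, from 0.005 ± 0.080 for arpc5a to 0.21 ± 0.18 for actr2a. None was called there either.

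Mpx, the myeloperoxidase of neutrophil granules, stood apart from the 3 genes. Its brightest probe set read 6.49, 5.40 and 5.16 in the control females, and 6.47, 5.67, 5.85 and 6.34 in the females on selenium. It read 7.06, 7.70, 6.42 and 6.82 in the control males, and 6.29, 7.70, 8.39 and 7.84 in the males on selenium. The sex difference was -1.39 ± 0.31 and was not called (limma, adjusted p = 0.0781). Without male selenium replicate 1, the lowest male, it was called, at -1.61 (adjusted p = 0.0381). Mpx was not called with any other fish left out. With the gapdh gap in the model it stood at -1.14 (limma, adjusted p = 0.555). With the muscle and retina lists mpx stood at -1.90 (limma, adjusted p = 0.179). Its other 3 probe sets were dimmer and gave sex differences of -0.06, -0.13 and 0.00, and its r with coro1a was -0.23.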

How the data were processed

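Each deposited value is a log2 expression level of 1 probe set in 1 fish. The authors used RMA and affy, per the submitters' processing notes, a method that corrects background, brings arrays to 1 distribution and summarises probes. Versions and the set of arrays that entered RMA are not given in these sources. The array medians ran from 7.24 to 7.35. The number of arrays limits the precision.

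From 15617 probe sets, 115 control probe sets were left out. Gene names came from the platform annotation, with symbols updated through RefSeq: 10795 of the 15502 probe sets had 1 symbol, 135 had several and were not named, and the rest had none. A gene was read by its brightest probe set. The members and the gene lists were chosen with earlier results of these data known.

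All 15 fish entered 1 limma model of the 4 group means (limma 3.58.1, R 4.3.3), with Benjamini-Hochberg adjustment over all 15502 probe sets and calls at adjusted p under 0.05. Correlations used deviations from the group means, with 2-sided tests of 100000 permutations within groups (smallest possible p 1e-05), adjusted over 57 relations. Slopes used the same model with the level of 1 gene added, adjusted over the 15501 other probe sets, and were chosen after the data were seen. The procedures were tested on simulated data. Genes named are the 3 members, the 12 nearest genes, and genes of the lists. The naming rule allows any measured gene of the coronin, Arp2/3 and leukocyte lists. Which of them are named, and all genes named from the antigen presentation, inflammation and erythrocyte lists, were chosen after their values were seen. Alternatives were other scalings, a filter at a mean log2 value of 5, array weights, moderation with an intensity trend, list means and the gapdh gap as covariates, the mean of all probe sets of a gene, and each fish left out in turn.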

Additional observations from a re-analysis of the deposited data

Results flagged for a closer look

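Among group values, 5 stood far from the rest of their group of 4 fish, out of 60 groups examined, where chance flags about 5%, or 1 in 20. Coro1a read 10.94 in female selenium replicate 2, against 9.80 in the next fish of its group. The same fish was highest in the mean of the microglia and macrophage list, at 8.16 against 7.60 in the next, and in the mean of the Arp2/3 list, at 9.64 against 9.47. Male control replicate 2 was the lowest of its group in the mean of the Arp2/3 list, at 9.32 against 9.37 in the next, and the highest in the dim coro1a probe set, at 6.10 against 4.96 in the next. Groups of 3 fish were not examined.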

How the results depend on the processing

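No paired analysis was possible because each fish has a number of its own. The sex differences of coro1a, ptprc and arpc1b averaged over the diets stayed positive under all alternatives run, but that of coro1a fell to 0.18 with both of its probe sets averaged. Since the genes were selected on levels from these arrays, the stable sign adds no support. With the mean of all probe sets of a gene, which adds the dim probe set to coro1a, r fell to 0.46 for coro1a with ptprc and to 0.56 for coro1a with arpc1b. With group means not removed, 23 relations passed in place of 15, counted over all 57 with the 3 pairs among them. The 3 genes had been selected on these levels, and the group differences stay in the count of 23. It therefore adds no support to the relations. With single fish left out, the count of relations ran from 0 to 16, and r from 0.84 to 0.92 for coro1a with ptprc, 0.88 to 0.95 for coro1a with arpc1b and 0.81 to 0.92 for ptprc with arpc1b. Leukocyte genes with a called positive slope ran from 0 to 6 on coro1a, 0 to 5 on ptprc and 1 to 6 on arpc1b. Over all probe sets the called slopes of either sign ran from 0 to 70, 6 to 66 and 13 to 79. Leukocyte genes called in the averaged sex difference ran from 0 to 1, the 1 being mpx. With the erythrocyte list as a covariate 1 leukocyte gene, btk, was called in the sex difference on selenium, at 0.45 (adjusted p = 0.0483). The causes were not tested. Over all probe sets, calls in the averaged sex difference were 22, against 1 with the muscle and retina lists, 5 with the gapdh gap and 57 with array weights, and 2 to 64 with single fish left out. On selenium alone they were 162, against 0, 1 and 238, and 2 to 328. The dim coro1a probe set moved from -0.16 to 0.93 in the sex difference on selenium with the muscle and retina lists as covariates.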
